A study of Mus musculus with 9 samples.

Results

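Of the 8280 H3K27me3 sites listed in control mouse embryonic stem cells, 2475 shared no base with any listed Suz12 site or Phf19 site. They were chosen by their position against those 2 lists alone. They made up 29.9% of the list (95% exact interval 28.9 to 30.9) and, being narrow, 19.2% of its length (4.65 of 24.3 Mb). They are called factor-free sites here, which says only that neither factor was listed on them. The other 5805 control sites are called factor-bound: 4029 overlapped Suz12 without Phf19 and 1776 overlapped Phf19.

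H3K27me3, the trimethylation of lysine 27 on histone H3, is a mark of silenced chromatin made by Polycomb repressive complex 2 (PRC2). Suz12 is a core subunit of PRC2 that its enzyme needs to work, and Phf19 is a Polycomb-like protein that associates with PRC2 and binds methylated lysine 36 of histone H3. In embryonic stem cells PRC2 sits mainly at CpG-rich promoters of developmental genes, and the mark it makes can extend beyond the places where the complex itself is bound.

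All samples were chromatin immunoprecipitations of E14Tg2A cells, a male line of mouse embryonic stem cells kept feeder-free with serum and leukemia inhibitory factor. Suz12 (1 library) and Phf19 (2 replicates, with only sites found in both listed) were mapped in wild-type cells. H3K27me3 was mapped once in cells carrying a random control hairpin RNA (shRd) and once in cells in which a hairpin RNA depleted Phf19 (shPhf19). Each H3K27me3 list thus rests on 1 library, differences between the conditions cannot be set against replicate spread, and none carries a p-value. How far Phf19 itself fell was not analysed here. The labels give catalogue numbers 07449 and 07450 for the antibodies of the shRd and shPhf19 libraries. The catalogue number changed with the condition, at 1 library each. The part of that difference in the results was not tested and cannot be told apart from that of the depletion.

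The lists give only the chromosome, start and end of each site, so the depth is unknown and the height of the mark cannot be compared. The shPhf19 list held 1180 sites. Positions below are on mouse build mm9, as the lists give them. Intervals are 95% intervals for counting error only. They count each site as an independent draw, which neighbouring sites need not be.

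The factor-free sites were narrow and fairly uniform. Their median width was 1575 bp, with an interquartile range of 1244 to 2105 bp and extremes of 400 and 17345 bp. Factor-bound sites had a median of 2572 bp (1762 to 3927), those with Suz12 alone 2193 bp and those with Phf19 4092 bp. Width is tied to the way the sites were chosen, since a wide site meets more Suz12 and Phf19 sites, so these values describe the sites and test nothing. When all control sites were ranked into 10 equal width classes, factor-free sites made up 59.7% of the narrowest class (378 to 1183 bp) and 6.28% of the widest (5204 bp and above).

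A small number of factor-free sites were nevertheless broad. The widest, on chromosome 9 at 121131779 to 121149124, spanned 17.3 kb. It lay 253 kb from the nearest Suz12 site, although a Phf19 site was 11.7 kb away. Next came a 13.9 kb site on chromosome 14 at 4177113 to 4191028, a 13.5 kb site on chromosome 11 at 77761679 to 77775209, and a 12.5 kb site on chromosome 7 at 69589597 to 69602121. A site of 11.3 kb on chromosome 8 (57974724 to 57986063) was 787 kb from any Suz12 site. The others of the 10 widest lay on chromosomes 12, 4, X, 2 and 1 and measured 8.62 to 10.2 kb. Of these 10 broad sites, 4 were still listed in shPhf19 cells and 6 were not. Over all control sites 8.96% were, and in the widest class 19.2% of factor-free and 47.9% of factor-bound sites.

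Most factor-free sites were not far from Suz12. From a factor-free site to the nearest Suz12 site the median was 30.3 kb (quartiles 4.36 and 116 kb), with 302 sites (12.2%) within 1 kb, 841 (33.98%) within 10 kb and 1781 (72.0%) within 100 kb. Only 30 sites lay more than 1 Mb away. For scale, a control site that did carry Suz12 lay a median of 56.0 kb from the next Suz12 site it did not overlap, with 5.29% within 1 kb. The nearest Phf19 site was farther, at a median of 137 kb, in a list of 4633 sites against 8054 for Suz12.

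The 5 factor-free sites nearest to Suz12 lay on chromosomes 3, 5, 9, 14 and 18, at 0 to 7 bases from a Suz12 site. The first of them touched its Suz12 site end to start. At the other extreme, the site at chromosome 14, 109310792 to 109312780, was 2761 kb from Suz12. Next came a site 2072 kb away on chromosome 16 (69954333 to 69955779) and one 2001 kb away on chromosome 9 (10903566 to 10905198). The last 2 were 1924 kb away on chromosome 15 (22965136 to 22968330) and 1768 kb away on chromosome X (123303834 to 123305195). None of these 10 was still listed after depletion, a number too small to set against the share over all factor-free sites given below.

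Sites just inside and just outside the 1-base limit had the same median width. The 104 factor-free sites with a Suz12 site within 250 bases had a median width of 1496 bp. The 179 control sites that shared 250 bases or fewer with Suz12, and nothing with Phf19, likewise had a median of 1496 bp. No site of either set was still listed in shPhf19 cells, with exact upper limits of 3.48% and 2.04%, against 8.96% of all control sites and 1.30% of factor-bound sites in the lower 5 of 10 width classes.

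The Suz12 sites beside factor-free sites mostly carried the mark themselves. Of the 296 Suz12 sites that were nearest to a factor-free site within 1 kb, 254 (85.8%, 81.3 to 89.6) also overlapped a control H3K27me3 site. Among all other Suz12 sites 70.2% did, a difference of 15.7 points (11.1 to 19.3). Both the choice of these Suz12 sites and the comparison use the control H3K27me3 list, so the difference is a description.

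**Figure D1:**
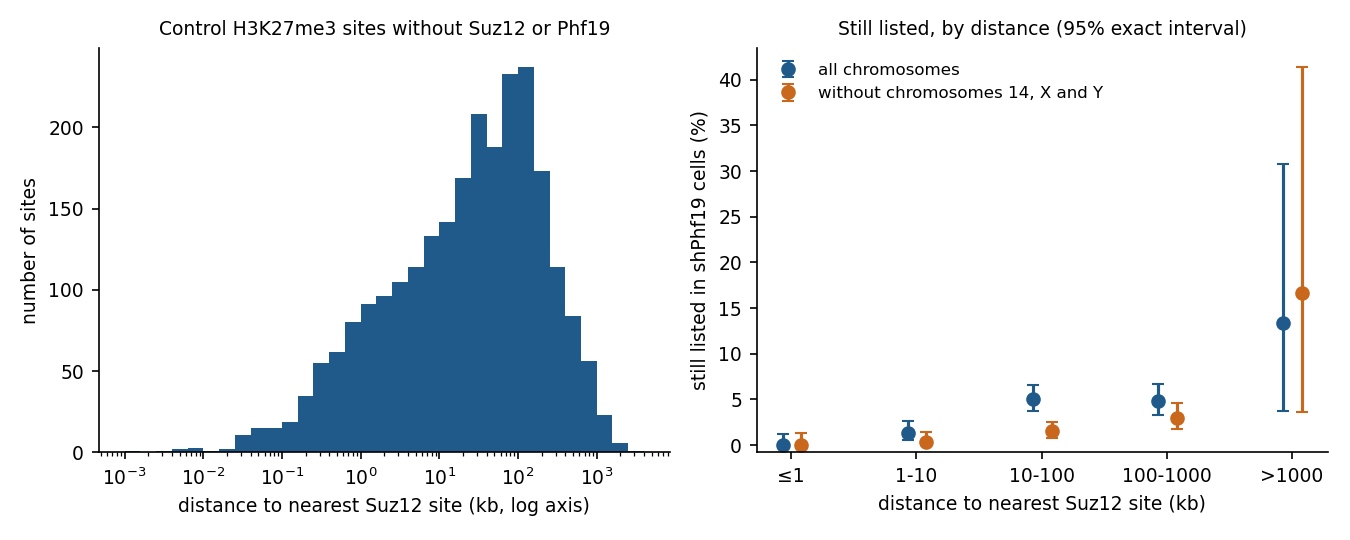
Left, the number of factor-free control H3K27me3 sites by distance to the nearest Suz12 site (kb, log axis; the site touching Suz12 is drawn at the left edge). Right, the percentage still listed in shPhf19 cells in 5 distance classes, as points with exact 95% intervals, for all chromosomes and without chromosomes 14, X and Y. The distances centre on 30.3 kb, and no site within 1 kb was still listed.

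Seen among the other control sites, the factor-free sites fell into 3 settings. A factor-bound H3K27me3 site lay within 5 kb of 636 of them (25.7%), and these sat a median of 1.42 kb from Suz12. Another 686 (27.7%) had only factor-free neighbours within 5 kb, and 1153 (46.6%) had no control site within 5 kb at all. The last 2 settings lay farther from Suz12, with medians of 62.2 and 63.8 kb. This is tied to their definition, which leaves out factor-bound sites within 5 kb. For 76.0% of all factor-free sites the nearest Suz12 site lay on a control H3K27me3 site. By distance it was 85.8% within 1 kb, 84.2% at 1 to 10 kb and 74.0% at 10 to 100 kb. It was 68.7% at 100 kb to 1 Mb and 15 of 30 beyond. Of Suz12 sites not nearest to a factor-free site within 1 kb, 70.2% lay on a control site. Of the 3 settings, sites with only factor-free neighbours were the widest, at a median of 1772 bp. The median was 1506 bp beside factor-bound sites and 1490 bp for those alone. Having no neighbour was slightly less common than for factor-bound sites, 49.9% of which had no control site within 5 kb, a difference of -3.30 points (-5.65 to -0.951). For sites with Suz12 alone it was 52.4%, a difference of -5.83 points (-8.32 to -3.33).

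Factor-free sites often came in runs. Another factor-free site lay within 50 kb of 50.9% of them (48.9 to 52.9). Joined at gaps of up to 50 kb, they formed 1665 chains, of which 1215 were single sites, 268 were pairs, 139 held 3 or 4 and 43 held 5 or more. The 43 long chains held 263 sites, 10.6% of all. For factor-bound sites 60.9% had another within 50 kb, but there are more of them, so the shares are given side by side and not compared.

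The longest chain lay on chromosome 17, 36181032 to 36390003. There 18 factor-free sites lay among 10 factor-bound sites and 12 Suz12 sites over 209 kb, with no Phf19 site. Although 3 shPhf19 sites fell in this stretch, none of the 18 was still listed. The chain on chromosome 15, 27922824 to 28005040, held 10 sites in 82.2 kb, and that on chromosome 5, 33881794 to 33910503, held 9 sites in 28.7 kb with no site of any other list among them. Neither chain kept a listed member. The chain on chromosome 14, 6039691 to 6193991, was different: 5 of its 8 sites were still listed. Chains of 7 took the fifth place, and there were 7 of them. One of these, at chromosome 14, 4869273 to 4940777, kept 6 of its 7 sites and is named after its values were seen. The other 6, on chromosomes 10, 2, 4 (a pair), 5 and 9, kept none.

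By chromosome, the factor-free share varied moderately over the autosomes. It ran from 22.9% of control sites on chromosome 1 (19.3 to 26.8) to 39.9% on chromosome 16 (33.4 to 46.7), with a median of 30.6% over the 19 autosomes. On chromosome X it was 48.4% (39.3 to 57.5), 18.9 points above the autosomes together (10.2 to 27.6). All 9 control H3K27me3 sites on chromosome Y were factor-free, although 5 Suz12 sites and 1 Phf19 site were listed on that chromosome. The excess on X sat in a single stretch, 120307344 to 123305195, where all 39 control sites were factor-free. Outside it 24.7% of the X sites were (15.99 to 35.3). This stretch was chosen after its values were seen.

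The main question of the H3K27me3 pair was what happens to the mark when Phf19 is depleted. Of all 8280 control sites, 8.96% were still overlapped by an shPhf19 site. Factor-free sites fell below that, with 90 of 2475 still listed, 3.64% (2.93 to 4.45). Factor-bound sites were still listed in 11.2% of cases (10.4 to 12.1), a difference of -7.60 points (-8.67 to -6.46). Factor-bound sites in the narrower classes were seldom still listed, as given below, and most factor-free sites are narrow. Weighted to the widths of the factor-free sites, the factor-bound share was 3.19%, which is 0.444 points below theirs. The sign thus turned, but this difference carries no interval, and 3.19% lies inside the factor-free interval of 2.93 to 4.45. Sites with Suz12 but no Phf19, weighted the same way, came to 1.96%.

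With width classes pooled, the order differed between narrow and wide sites. In the lower 5 of the 10 width classes 2.51% of factor-free sites (1.86 to 3.32) and 1.30% of factor-bound sites (0.871 to 1.86) were still listed. The 1.22-point difference (0.386 to 2.11) was 0.209 points (-0.531 to 0.990) without chromosomes 14, X and Y. In the narrowest class the counts on all chromosomes were 19 of 495 factor-free sites and 0 of 334 factor-bound sites. In the upper 5 classes together the order was the opposite, 7.42% (5.40 to 9.90) against 17.4% (16.2 to 18.7), a difference of -10.03 points (-12.3 to -7.29). Width was not matched within them, as the widest class held 52 factor-free and 776 factor-bound sites. In classes 6 to 10 the factor-free shares were 3.61, 5.88, 10.3, 8.33 and 19.2%. The factor-bound shares were 4.25, 5.66, 8.88, 15.9 and 47.9%. The factor-free share was thus the higher in classes 7 and 8. Against sites with Suz12 alone the upper classes differed by 0.561 points (-1.66 to 3.22), an interval that holds 0.

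**Figure D2:**
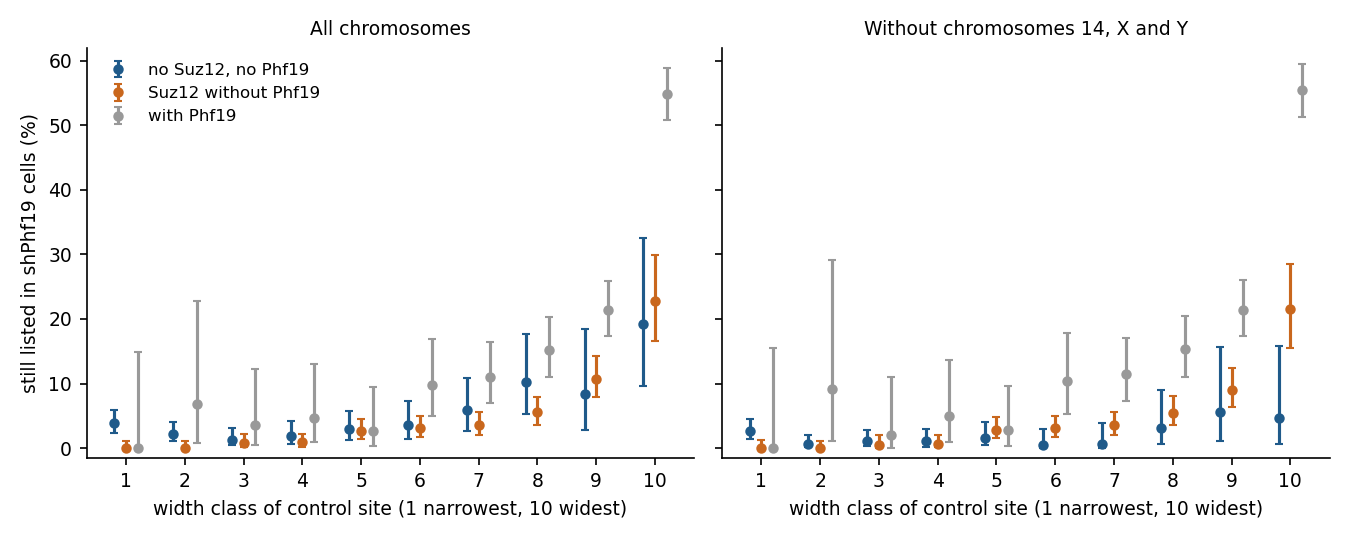
Percentage of control H3K27me3 sites still listed in shPhf19 cells (points, exact 95% intervals) in 10 equal width classes, for factor-free sites, sites with Suz12 without Phf19, and sites with Phf19, on all chromosomes (left) and without chromosomes 14, X and Y (right). In the widest class 19.2% of factor-free sites were still listed on all chromosomes and 4.65% without those 3.

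Chromosomes 14, X and Y carried most of the factor-free sites that stayed listed. They held 187 factor-free sites, 7.56% of all, but 54 of the 90 still listed, or 60.0%. There 28.9% stayed listed (22.5 to 35.9), against 36 of 2288, or 1.57% (1.10 to 2.17), on the other 18 chromosomes, a difference of 27.3 points (21.3 to 34.2). Taken over whole chromosomes, factor-bound sites showed no such gap, with 8.47% on 14, X and Y and 11.4% elsewhere, a difference of -2.92 points (-5.68 to 0.823). Chromosome Y held 0 factor-bound sites, and on X 1 of 64 was still listed. Within a part of chromosome 14 their share was higher, as given below. These 3 chromosomes were singled out after their values were seen, so the intervals describe them only.

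Without chromosomes 14, X and Y the wide factor-free sites stood below factor-bound sites. For the lower 5 width classes pooled, the interval of the difference held 0. Over all widths, their 1.57% compared with 3.01% for factor-bound sites weighted to the same widths (a difference of -1.44 points) and 1.79% for sites with Suz12 alone (-0.213 points). In the upper 5 width classes 10 of 512 factor-free sites were still listed, 1.95% (0.940 to 3.56), against 17.5% of factor-bound sites, a difference of -15.6 points (-17.1 to -13.5). Against sites with Suz12 alone, at 6.43%, it was -4.48 points (-5.95 to -2.58). Neither difference is matched for width, as the widest class held 43 factor-free and 757 factor-bound sites. The factor-free share was below the factor-bound share in each of these classes, from 0.552% against 4.34% in class 6 to 4.65% against 48.1% in class 10. In the lower 5 classes, which held 1776 of the 2288 sites, the shares were 1.46% and 1.25% for factor-free and factor-bound sites, a difference of 0.209 points with an interval that holds 0 (-0.531 to 0.990). Against sites with Suz12 alone it was 0.489 points (-0.239 to 1.25). Within these classes the order was mixed. In the narrowest, 12 of 454 factor-free sites (2.64%, 1.37 to 4.57) and 0 of 304 factor-bound sites (0 to 1.21) were still listed. In classes 4 and 5 the factor-free share was the lower, 1.05% against 1.23% and 1.58% against 2.84%. Between 0 and 5 factor-free sites per chromosome were still listed on these 18, and 4 of them (chromosomes 1, 9, 12 and 19) had none.

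**Figure D3:**
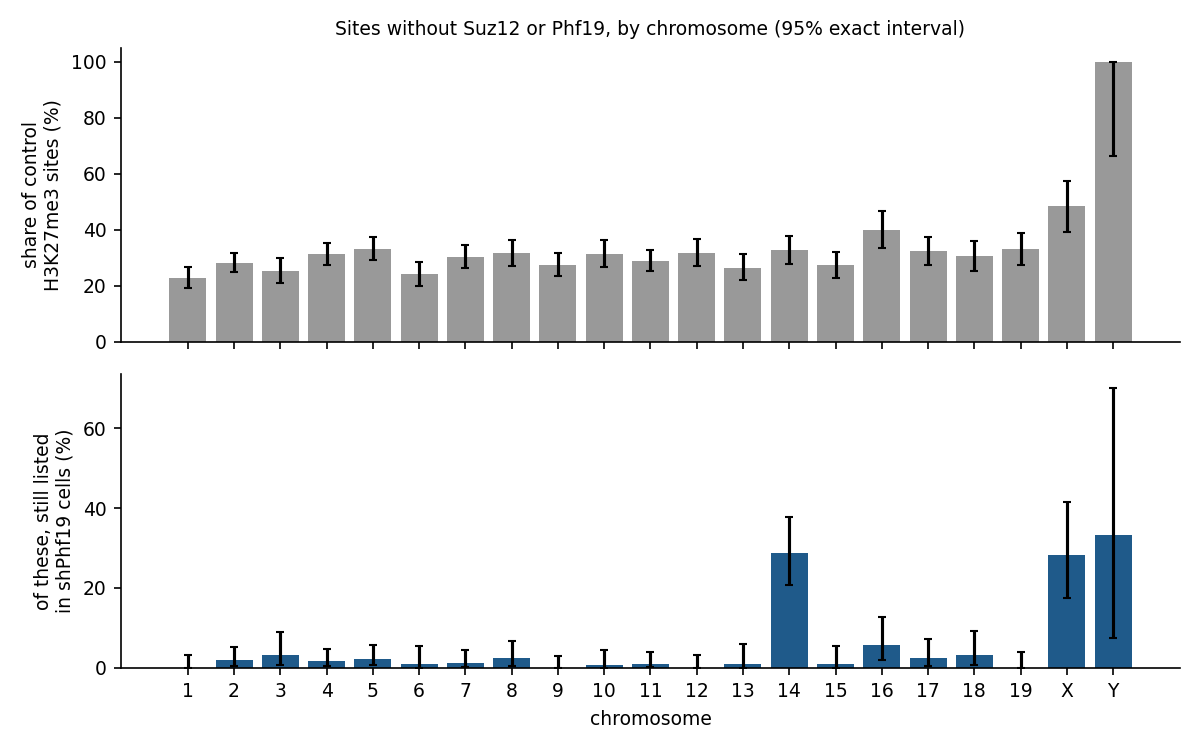
Factor-free sites as a percentage of all control H3K27me3 sites on each chromosome (top) and the percentage of these still listed in shPhf19 cells (bottom), as bars with exact 95% intervals. The top bars lie between 22.9% and 39.9% on autosomes, and the bottom bars of chromosomes 14, X and Y reach 28.8%, 28.3% and 33.3%.

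On chromosome 14 all 34 sites still listed lay near its start, in the stretch from 3 to 9 Mb. That stretch held 48 factor-free sites, and 70.8% of them stayed listed (55.9 to 83.0), against 13 of its 68 factor-bound sites, 19.1% (10.6 to 30.5). None of the 70 factor-free sites on the rest of the chromosome did (0 to 5.13%). Over the whole of chromosome 14, 25 of 243 factor-bound sites (10.3%) were still listed, those 13 among them. The stretch was also dense in shPhf19 sites, with 69 of the 87 on chromosome 14, and 19 of those 69 were on no control site. It held 57 Suz12 sites and no Phf19 site, so its factor-free sites were close to Suz12, at a median of 18.8 kb.

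The stretch on chromosome X differed in its distance from PRC2. Its 39 sites lay a median of 272 kb from the nearest Suz12 site, with 5 Suz12 sites between 120 and 124 Mb. Of the 39, 13 were still listed (33.3%, 19.1 to 50.2). Between the same limits lay 31 of the 43 shPhf19 sites on X, and 18 of those 31 were on no control site. A smaller group lay at the start of chromosome 16, 3112955 to 3352378, where all 6 control sites were factor-free and 4 stayed listed. The window of 1 Mb there held no Suz12 site but 2 Phf19 sites. Together these 3 stretches held 93 factor-free sites and 51 of the 90 still listed. Elsewhere 39 of 2382, or 1.64% (1.17 to 2.23), were still listed. All 3 were chosen after their values were seen. On chromosome Y, 3 of 9 were still listed: 1260317 to 1261719, 1581245 to 1582071, and 2688950 to 2689758.

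The 3 windows of 1 Mb with the most factor-free sites showed how unlike dense regions were. The window from 121 Mb on chromosome X held 19, of which 6 stayed listed, and no factor-bound site. That from 36 Mb on chromosome 17 held the 18 of the longest chain, of which 0 stayed listed, while 2 of its 12 factor-bound sites did. That from 4 Mb on chromosome 14 held 17, of which 14 stayed listed, and 2 of its 15 factor-bound sites did. Dense factor-free sites thus stayed listed in some of these windows and not in others.

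**Figure D4:**
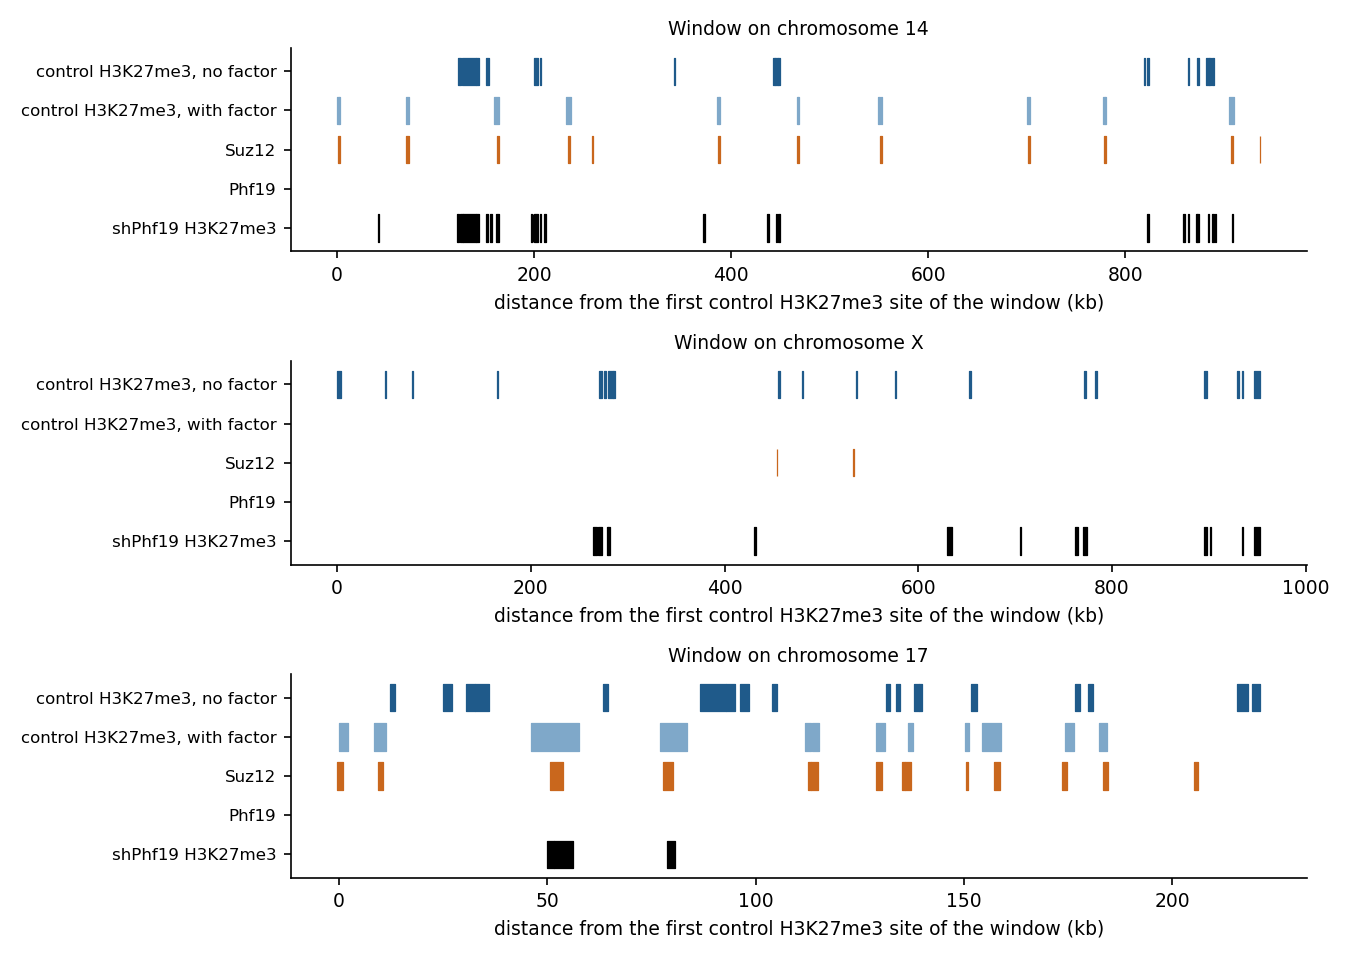
Sites of each list in the 3 windows of 1 Mb with the most factor-free sites, drawn to scale as bars along the distance (kb) from the first control H3K27me3 site in the window. shPhf19 sites lie on 14 of 17 factor-free sites in the chromosome 14 window, on 6 of 19 in the chromosome X window and on 0 of 18 in the chromosome 17 window.

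Nearness to Suz12 went with leaving the list. None of the 302 factor-free sites within 1 kb of Suz12 was still listed (exact interval 0 to 1.21%). The share was 1.30% (0.524 to 2.66) at 1 to 10 kb, 5.00% (3.70 to 6.59) at 10 to 100 kb and 4.82% (3.32 to 6.74) at 100 kb to 1 Mb. Beyond 1 kb it was 4.14% in all, 4.14 points more than within 1 kb (2.67 to 5.06). The median width was 1466 bp within 1 kb and 1597 bp beyond it. Without chromosomes 14, X and Y the values were 0 of 282, then 0.388%, 1.52% and 2.92%, so the order of the classes at 10 to 100 kb and 100 kb to 1 Mb turned. Over 1 Mb the counts were 4 of 30, or 3 of 18 without those chromosomes, too few for a narrow interval.

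A split by neighbouring H3K27me3 sites gave a similar picture. It is not independent of the split by distance, since sites beside a factor-bound site lay a median of 1.42 kb from Suz12. Of 636 factor-free sites with a factor-bound site within 5 kb, 2 were still listed (0.314%, 0.0381 to 1.13), against 4.79% of the other 1839, a difference of 4.47 points (3.26 to 5.57). Without chromosomes 14, X and Y it was 0 of 614 against 36 of 1674, or 2.15 points (1.29 to 2.96). Factor-free sites with only factor-free neighbours stayed listed in 6.27% of cases (4.57 to 8.35) and those alone in 3.90% (2.86 to 5.19), but in 1.92% and 2.29% without those chromosomes, so the order of these 2 settings turned.

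Where factor-free sites stayed listed, most of their length did. The shPhf19 sites covered a median of 92.0% of a still listed factor-free site (interquartile range 72.5 to 99.4), and 76.5% of their summed length (191 of 250 kb). At the 652 factor-bound sites still listed the median was 32.2% (22.4 to 43.0). At least 90% was covered at 48 of 90 factor-free sites (53.3%) and at 5 of 652 factor-bound sites (0.767%), a difference of 52.6 points (42.3 to 62.5). Of the 5 factor-bound sites, 4 had Suz12 without Phf19.

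This contrast held at both widths and in the rest of the genome. Factor-free sites below the control median width were covered to a median of 91.6% and factor-bound ones to 67.1%. At or above that width the medians were 92.0% and 31.3%, and the difference in the share at least 90% covered was 51.9 points (37.2 to 66.2). Width was not matched within either range. Factor-bound sites were wider in the upper range, at a median of 6043 bp against 3283 bp. They were also wider in the lower range, at 1891 bp (28 sites) against 1303 bp (48 sites). Without chromosomes 14, X and Y the 36 factor-free sites had a median of 88.9% and the 626 factor-bound sites 31.9%. Only 10 of those 36 were at or above the control median width, and these had a median of 63.3%. Of summed length, 61.4% was covered at the 36 sites and 48.8% at those 10. At the 54 factor-free sites on chromosomes 14, X and Y it was 83.9%.

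The ends of the sites also coincided more often than at factor-bound sites, beyond the interval only for all widths together and for the wider sites. At 27 of the 90 factor-free sites still listed (30.0%, 20.8 to 40.6) a single shPhf19 site began and ended within 200 bases of the control site. That was so at 4 of the 652 factor-bound sites (0.613%), a difference of 29.4 points (20.8 to 39.5). All 4 were below the control median width, where the shares were 16 of 48 factor-free sites (33.3%, 20.4 to 48.4) and 4 of 28 factor-bound sites (14.3%, 4.03 to 32.7), a difference of 19.0 points with an interval that holds 0 (-1.73 to 35.6). At or above that width the counts were 11 of 42 and 0 of 624, a difference of 26.2 points (15.3 to 41.1). Width was not matched here either. Without chromosomes 14, X and Y the counts were 10 of 26 and 2 of 25 below that width. At or above it they were 3 of 10 and 0 of 601. A single shPhf19 site met 84 of the 90.

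**Figure D5:**
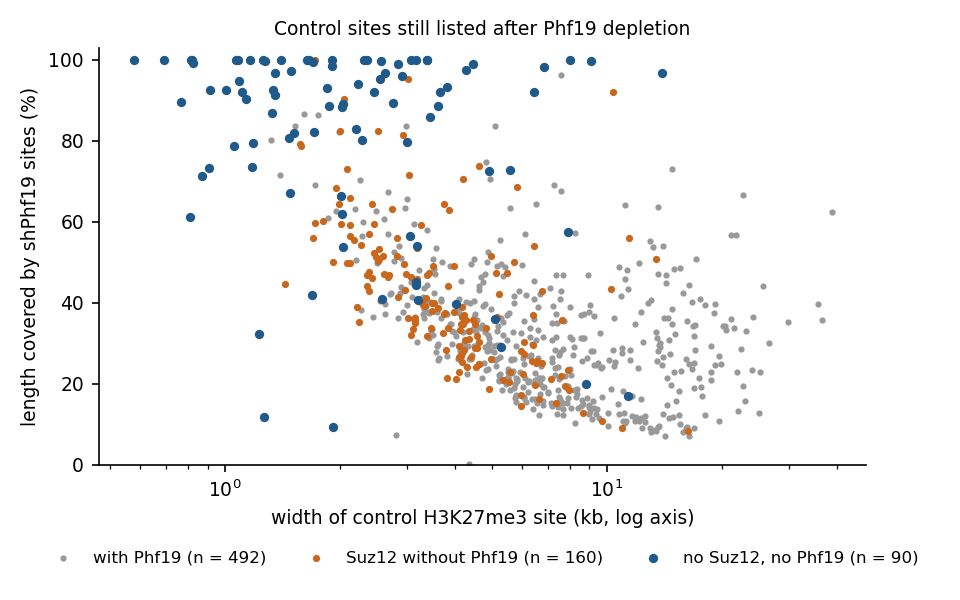
Each point is a control H3K27me3 site still listed in shPhf19 cells, by its width (kb, log axis) and the percentage of its length covered by shPhf19 sites, for 90 factor-free sites, 160 with Suz12 without Phf19 and 492 with Phf19. Factor-free points gather near full coverage (median 92.0%), while factor-bound points centre on 32.2%.

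Single sites show both patterns. Of the 10 widest factor-free sites still listed, 3 lay on chromosome 14, 5 on X, 1 on chromosome 8 and 1 on chromosome 2. The 13.9 kb site on chromosome 14 given above was covered to 96.8% by 2 shPhf19 sites, and the 8.01 kb site at chromosome 14, 3123472 to 3131484, to 100%. The site at chromosome X, 166409444 to 166418524 (9.08 kb), was covered to 99.7% although a Suz12 site lay 1.11 kb away. Those at chromosome X, 121948381 to 121955222 and 120570952 to 120577404, reached 98.3% and 92.0%.

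Among the 10 widest still listed, the sites on chromosomes 8 and 2 had the lowest coverage. The 11.3 kb site on chromosome 8 was covered to 17.03%, and the 8.80 kb site at chromosome 2, 135932744 to 135941544, to 19.9%. Intermediate coverage was found at chromosome X, 121281938 to 121287221 (29.1%) and 120758514 to 120764091 (72.9%), and at chromosome 14, 7277776 to 7285701 (57.4%). The broadest factor-free site of all, the 17.3 kb site on chromosome 9, was not overlapped by any shPhf19 site.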

How the data were processed

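The deposited files are 4 lists of sites, each row a chromosome, start and end, without scores. Bowtie 0.12.7, MACS 1.4.1 and mm9 are named, per the submitters' processing notes, without roles. The threshold and control library of each list were not given in the sources used here. Per the series' design text, Phf19 sites are those found in both replicates. Factor-free sites were control sites sharing at least 1 base with no Suz12 and no Phf19 site. The sites and lists were chosen with earlier results of these data known. Site width is end minus start. Shares carry exact Clopper-Pearson intervals and differences Newcombe intervals. Weighted shares give factor-bound sites the width classes of factor-free sites. Named were the 10 widest sites, the 10 widest still listed, the 5 nearest to and 5 farthest from Suz12, the 5 longest chains, and 3 windows. No mm9 genome or annotation was used, so sites carry no gene names or sequences. The functions were tested on simulated data, and both main counts equalled those of bedtools 2.31.1. Scripts ran on Python 3.11.15 with scipy 1.17.1, pandas 2.3.3, numpy 2.4.6 and matplotlib 3.10.9.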

Additional observations from a re-analysis of the deposited data

How the results depend on the processing

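Of 49 alternatives, 29 gave a value inside the reported interval, 19 fell outside it and 1 reversed a sign. When only overlaps of at least 50% of the shorter site counted, factor-free sites were 42.3% of control sites, with a median width of 1644 bp, 6.83 kb from Suz12, and the difference in the share still listed was -10.2 points. Requiring no Suz12 or Phf19 site within 1 kb gave 26.0% and 42.0 kb. Merging sites within 1 kb gave 27.8%, 1630 bp and 47.6 kb, with 37.6% near another factor-free site. Among control sites at or above the median width the values were 13.7%, 2803 bp, 39.1 kb and 39.7%, and the difference was -10.04 points. A gap of 10 kb put 38.0% and one of 100 kb put 59.5% near another factor-free site. The difference was -9.81 points on autosomes without chromosome 14. Weighting to the widths of factor-free sites reversed it to 0.444 points, and both together gave -1.44 points, each without an interval. For these the cause was not tested, other than that the alternatives change which sites are counted. The median covered length stayed between 87.5% and 92.3% under its 7 alternatives. Those 7, the weighting without chromosomes 14, X and Y, and counting touching sites as overlapping were chosen after seeing the data. No paired analysis was possible because both H3K27me3 lists come from single libraries. The single Phf19 list of common sites does not allow a replicate to be left out. Without read depth, a site missing from a list does not show a missing mark.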

Other observations

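Seen from the depleted cells, 205 of the 1180 shPhf19 sites (17.4%) overlapped neither Suz12 nor Phf19. Of these, 89 lay on a factor-free control site, 23 on the part of a factor-bound control site away from its factor, and 93 on no control site. Chromosomes 14, X and Y held 114 of the 205. The 89 shPhf19 sites on factor-free sites were 1821 bp wide in the median, and all other shPhf19 sites 1451 bp. None of the 89 overlapped Suz12 or Phf19. Of the 2385 factor-free sites no longer listed, 22 (0.922%) lay within 1 kb of an shPhf19 site and 205 (8.60%) within 10 kb.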
